A study of Arabidopsis thaliana with 4 samples.

Results

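The transcripts described here were abundant in shoot apices in short days and were 2- to 4-fold lower after 7 long days. The members were chosen by their measured intensities. A probe set is a group of array features meant to read 1 transcript, though some are shared by several genes. Each was taken when its intensity was 500 or more on both short day arrays. The ratio of the higher shifted value to the lower short day value also had to be above 0.25 and at most 0.5. Of 22746 probe sets on the array 6954 were bright in this sense, and 79 of these (1.14 percent) lay in the ratio range. UF3GT and AT2G31790 were left out by name, which left 77 members. The annotation paired 26 of them with 1 gene and 1 with a pair of genes, and 50 have no gene named here. All 4 arrays were used to choose the members, so their lower level after the shift is a description and is not tested.

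Shoot apices were dissected from Arabidopsis thaliana plants of the wild-type accession Col-0, and total RNA of each sample was hybridised to 1 array. One group, SD30, grew in short days for 30 days, and the other, SD30_LD7, had 30 short days and then 7 long days, with 2 samples in each group. Separate plantings are not recorded in the labels. The p-values therefore cover no more than the spread of these samples, which could be technical. The shifted plants were also 7 days older, and day length and age cannot be told apart.

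Long days are a signal that promotes flowering in Arabidopsis, and the apex answers it by turning from making leaves to making flowers. A dissected apex holds the meristem, the youngest leaves and the cells between them. Young leaf cells take up metals, lay down cuticle and make defence compounds and pigments. In such bulk samples fewer cells of a type and less RNA per cell cannot be told apart.

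The arrays had been scaled to a common level by the authors, with a mean of 500.033 to 500.036 without the lowest and highest 2 percent, and medians of 207 to 220.5. The lowest correlation between arrays of a group was 0.985 across 15922 tested probe sets, which are not independent replicates, against 0.942 to 0.948 for arrays from different groups. The actin control, whose signal at the 3' end over the 5' end tracks RNA degradation, had ratios of 6.51 and 5.72 for the short day arrays. The shifted arrays held both the highest ratio, 8.27 on replicate 1, and the lowest, 4.64 on replicate 2. CLV3, the peptide signal of the shoot meristem, lay at 72.6 to 103.5 on the 4 arrays and ULT1, a meristem size regulator, at 986 to 1163. The annotation named 2 of 7 meristem, 2 of 8 leaf mesophyll, 4 of 6 trichome and guard cell, 1 of 3 myrosin cell and 1 of 6 flower markers, and none of the epidermal, vascular or root markers. The summed intensity of the 2 meristem markers was 1089.9 to 1093 in short days, against 1129 to 1251 after the shift. That sum was mostly ULT1, and neither ULT1 nor CLV3 was called. The sum of the leaf markers was 3917 to 5537 and 3741 to 3879.7. The leaf sum was mostly RCA, rubisco activase, with 5410 and 3785.5 against 3444 and 3327.5 (not called, limma adjusted p = 0.085), while LHCB4.3, a light-harvesting protein gene, was higher after the shift with 126.7 and 131.5 against 435 and 413 (adjusted p = 1.7e-05). The trichome and guard cell markers summed to 576 to 658 and 501 to 524 with MUTE at or below the floor of 23.5 on all 4 arrays. Of these SPCH was called lower, with 418.6 and 359.5 against 251.9 and 272.2 (limma adjusted p = 0.026), a call lost without any 1 array. TRY, with 153.2 and 136.3 against 181.3 and 167.7, and FAMA were not called. The flower marker UFO had 29.3 and 57.4 against 181 and 199.7. FAMA, the myrosin cell marker, listed as FMA, had 62.6 and 66.9 against 63.4 and 80.4. The part of cell type proportions in the members' lower levels was not tested.

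The members' median intensity was 1120.4 and 1125 on the short day arrays and 362 and 340.1 on the shifted arrays. Their mean short day level ran from 541.5 to 15301. After the shift 48 of the 77 were below 500 on both arrays, 27 were at 500 or more on both, and 5 were still at 1000 or more. The fold between group means ran from 2.12 to 5.69 with a median of 2.93, and the median log2 difference was -1.55, beside 0.02 over all bright probe sets and -0.00 over all tested ones. The rule sets the higher shifted value against the lower short day value, so 14 members differed by more than 4-fold in their means. All 77 passed the whole-table limma fit as lower after the shift (adjusted p below 0.05), beside 8.2 percent of all tested probe sets, and nothing is read from that count since the same contrast chose the members.

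**Figure D1:**
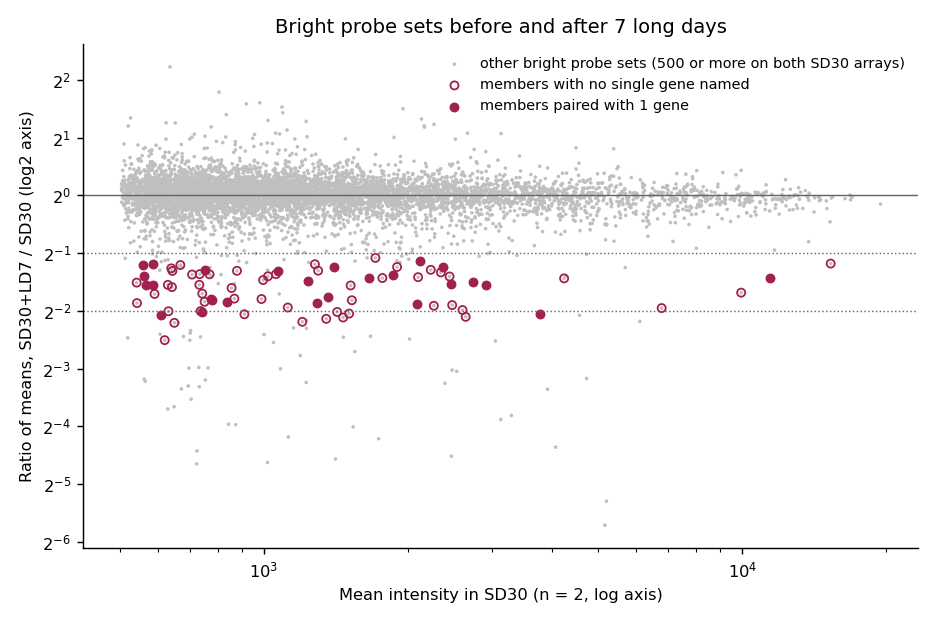
Each point is 1 of the 6954 bright probe sets, by its mean short day intensity (log axis) and the ratio of the shifted to the short day mean (log2 axis), with n = 2 arrays per group. The 77 members, filled where paired with 1 gene, lie around and between the dotted lines at 0.25 and 0.5, and spread over the whole range of short day levels up to 15301.

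At the strong end of the range, the genes just inside were ZIP6 with a ratio of 0.265, MT1C with 0.267 and PIFI with 0.290. The nearest named gene just outside was AT1G29660, with 0.239. At the weak end AT2G36950 with 0.492, AT1G67865 with 0.467 and AT5G43150 with 0.464 lay inside. The chitinase gene CHI with 0.505, the ubiquitin-conjugating enzyme gene UBC29 with 0.509 and the organ growth regulator gene NUB with 0.521 lay just outside.

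Of the 3 members named for metal handling, MT1C and ZIP6 stood at the strong end. MT1C encodes a metallothionein, a small cysteine-rich protein that binds copper and zinc. It had intensities of 3529.6 and 4031 in short days, against 944 and 883 after the shift, 4.14-fold lower. ZIP6, a member of the ZIP family of zinc and iron transporters, had 760.3 and 724 before and 192 and 174 after, 4.06-fold lower. ZIP6 was thus reduced to 24.6 percent of its short day mean and MT1C to 24.2 percent, and PIFI alone among the named members had a lower share on these values. The other member of the ZIP family named by the annotation, ZIP9, was dim, with 53.6 and 91.8 before and 52.8 and 51.1 after (limma log2 difference -0.43 ± 0.34 SE, adjusted p = 0.48). AT2G36950, whose protein carries a heavy metal associated domain, had 594 and 521 against 256 and 227, and at 2.31-fold lower it was near the weak end.

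Lipid transfer and membrane genes included the brightest named member. AT5G01870 encodes a protein of the lipid transfer family, small secreted proteins that carry lipids and are known from the cuticle. Its intensity was 11933 and 10919 in short days, against 4785 and 3652 after the shift, 2.71-fold lower, so it stayed far above most transcripts on all arrays. The shifted arrays differed by 31.0 percent of the lower one, more than the short day arrays at 9.3 percent. AT3G18280, of the related family of lipid transfer and protease inhibitor proteins, had 1519.5 and 1195 against 372 and 430.2, a 3.39-fold lower mean. The short day arrays differed by 27.1 percent, the widest short day gap among the 26 named members.

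AT4G30650 belongs to a family of small membrane proteins whose genes respond to low temperature and salt. It had 1960.5 and 2207 in short days, against 597 and 533 after the shift, 3.69-fold lower. AT4G30660, the next gene on the chromosome and of the same family, had 2361 and 2571 against 1359 and 1391. That is 1.79-fold lower with a limma log2 difference of -0.84 ± 0.10 (adjusted p = 1.3e-04), and the adjacent genes thus both had lower levels, by different amounts. How far similar sequences share signal between these probe sets was not tested. PMEAMT encodes a phosphoethanolamine N-methyltransferase, an enzyme that makes the head group of phosphatidylcholine. It had 1475 and 1320.2 in short days, against 599 and 587 after the shift, and at 2.36-fold lower it was one of the milder named members.

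Proteases, protease inhibitors and defence lectins formed another group. Of these scpl35, a serine carboxypeptidase-like gene, was the brightest with 2836 and 2981 in short days, against 1169.5 and 824 after the shift, 2.92-fold lower. Its shifted arrays differed by 41.9 percent, the widest gap of any named member in that group, and both still lay well below the short day pair. AT2G38870, which encodes a serine protease inhibitor of the potato type I family, had 2195 and 2716 against 922 and 776, 2.89-fold lower. BETA-VPE encodes a vacuolar processing enzyme, a cysteine protease that matures vacuolar proteins and is best known from seeds. It had 510.2 and 613 in short days, just above the brightness minimum, and 203 and 225 after the shift, 2.62-fold lower.

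The annotation named 3 other vacuolar processing enzyme genes. GAMMA-VPE, known from vegetative tissue, had 959.5 and 995.5 in short days, against 715 and 823 after the shift, a limma log2 difference of -0.35 ± 0.11 that missed the threshold (adjusted p = 0.061). ALPHA-VPE and DELTA-VPE never exceeded 39.3 on any array and were too dim to test. The difference between the responses of BETA-VPE and GAMMA-VPE was not tested.

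The carboxypeptidase-like family is large, and the other genes of it did not move one way. Of 16 family members bright enough to test, limma called 5 lower and 2 higher, and scpl35 was 1 of the 5. Without scpl35, which was chosen for being lower, that is 4 of 15 lower, beside 8.2 percent lower and 6.8 percent higher over all tested probe sets. The family was chosen with earlier results of these data known, so this count is not free of choice. The other lower genes were scpl31 at -3.59 ± 0.27 on the log2 scale (adjusted p = 2.5e-06), scpl46 at -1.02 ± 0.22 (0.0074), scpl20 at -0.99 ± 0.20 (0.0050) and SCPL49 at -0.66 ± 0.11 (0.0019). Omitting either short day array or SD30_LD7 replicate 2 ended the calls of scpl20 and scpl46 (adjusted p up to 0.16), and omitting SD30 replicate 2 ended that of SCPL49 (0.056). The higher genes were scpl25 at 0.54 ± 0.11 (0.0059, not called without SD30 replicate 1) and scpl50 at 0.45 ± 0.12 (0.030, not called without any 1 array). The median over the 16 genes was -0.06.

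JAL34 encodes a jacalin-related lectin, a sugar-binding protein of the group linked to ER bodies and myrosinase complexes, which break down glucosinolates. It had 808 and 741 in short days, against 224 and 221 after the shift, 3.48-fold lower. Its next neighbour JAL33 had 174 and 204 against 74.8 and 46.8 (-1.67 ± 0.27, adjusted p = 0.0013, lost without SD30 replicate 2 at 0.056). JAL22 had 164 and 189.6 against 23.9 and 18.2, which lie at the floor, and was at least 7.47-fold lower (adjusted p = 3.0e-05), while JAL23, which is close to JAL22 on chromosome 2, had 713 and 535 against 1455 and 1527 (1.27 ± 0.14, adjusted p = 4.2e-05). Of the 4 lectin genes named by the annotation 3 were thus lower and 1 was higher. With JAL34, which the rule chose, left out, 2 of 3 were lower. In the wider list of glucosinolate breakdown and ER body genes 7 of 15 were named and tested, with 5 lower and 1 higher. Without JAL34, which was chosen for being lower, that is 4 of 6 lower, beside 8.2 percent lower and 6.8 percent higher over all tested probe sets. Both gene sets were chosen with earlier results of these data known, so these counts are not free of choice. The lower ones included PYK10, the ER body beta glucosidase, at -3.26 ± 0.12.

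**Figure D2:**
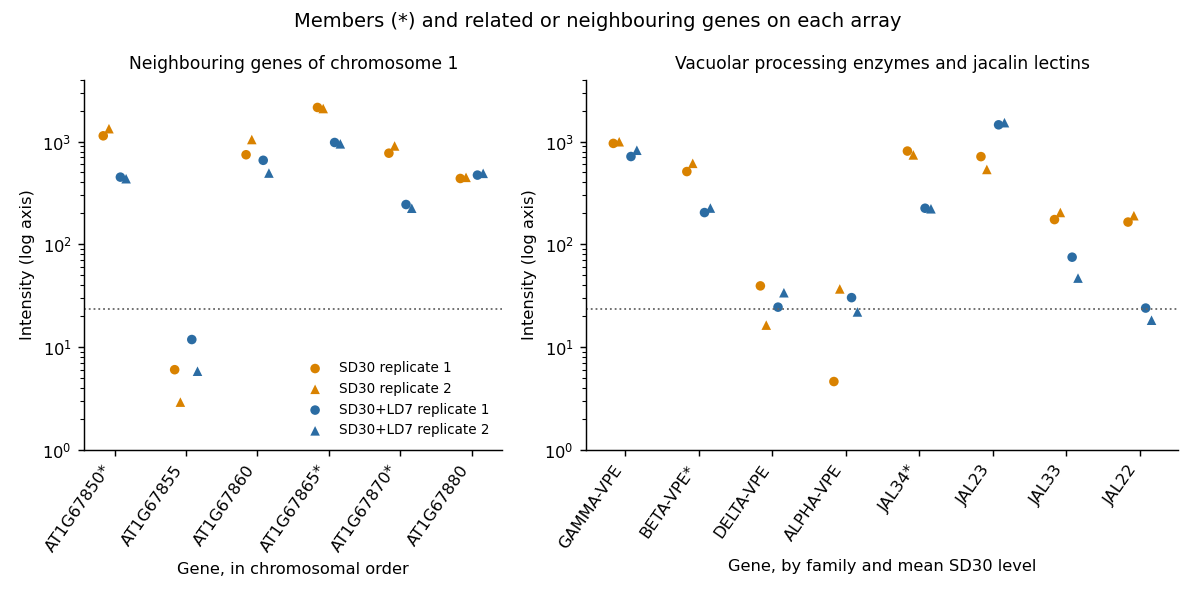
Intensity (log axis) of members, marked by an asterisk, and of related or neighbouring genes on each of the 4 arrays, with the floor of 23.5 as a dotted line. AT1G67850, AT1G67865, AT1G67870, BETA-VPE and JAL34 lie lower on both shifted arrays, while AT1G67880 has group means of 442 and 481 and JAL23 is higher after the shift.

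Pigment and phenolic genes were few among the named members. AT5MAT encodes the malonyltransferase that decorates anthocyanins, the red and purple flavonoid pigments. It had 589.5 and 541 in short days, against 207 and 177 after the shift, 2.95-fold lower. The probe set shared by AT1G03495 and AT1G03940, which encode acyltransferases of the same broad family, had 1242 and 1312 against 592 and 526, 2.29-fold lower, and its signal cannot be given to either gene. LigB, an extradiol ring-cleavage dioxygenase gene, had 544 and 628 against 192 and 208, 2.93-fold lower.

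Other genes of the flavonoid and phenylpropanoid list were measured beside AT5MAT. Of 22 listed genes 8 were named and tested, and limma called 5 lower, AT5MAT among them, and 2 higher. Without AT5MAT, which was chosen for being lower, that is 4 of 7 lower, beside 8.2 percent lower and 6.8 percent higher over all tested probe sets. The list itself was chosen with earlier results of these data known. UF3GT, 1 of these 4, would meet the rule and was left out by name, so this count is not free of that choice. It had 783 and 951 against 321 and 280.3 (-1.52 ± 0.14, adjusted p = 1.2e-05). DFR, dihydroflavonol reductase, stayed outside the ratio range with 1485 and 1419 against 928 and 589 (-0.97 ± 0.17, adjusted p = 0.0020, lost without either short day array). The 2 that were higher encode glucosyltransferases of hydroxycinnamates and were dim in short days. UGT84A1 had 2.5 and 25 in short days, at or below the floor on 1 array and just above it on the other, so its rise was at least 6.29-fold (limma adjusted p = 1.1e-04). Raising the lower value to the floor narrowed the spread that the fit saw. UGT84A3 was higher by 1.71 ± 0.31 on the log2 scale. UGT78D2, at -0.60 ± 0.13 (0.0069), was not called without SD30 replicate 1 or SD30_LD7 replicate 1. The UGT84A3 call was lost without SD30_LD7 replicate 1, and the calls of UGT84A1 and UGT84A3 were lost with the floor at the 40th percentile.

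**Figure D3:**
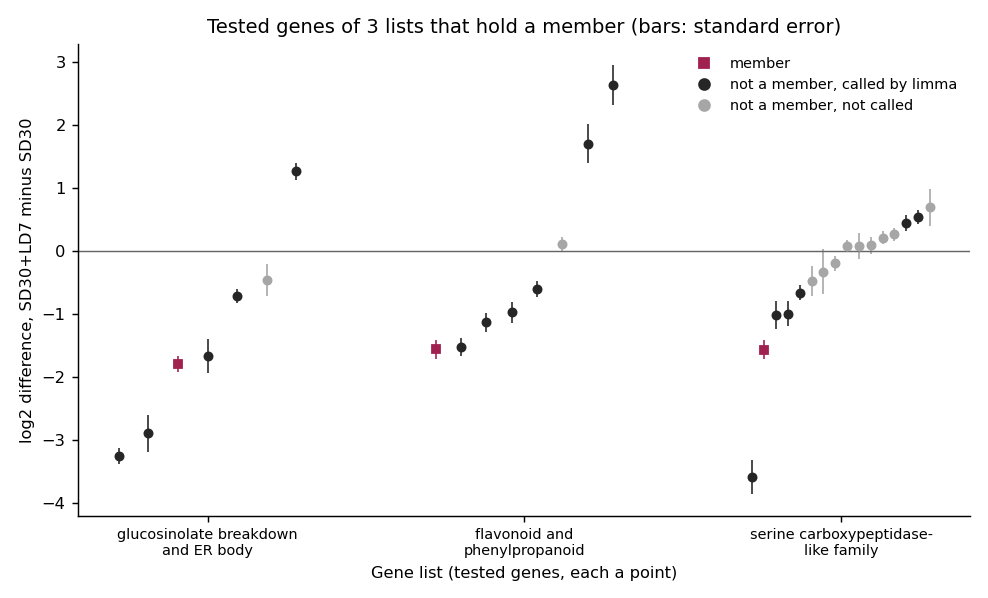
Limma log2 difference (shifted minus short days) with its standard error for each tested gene of 3 lists that hold a member: 7 glucosinolate breakdown and ER body genes, 8 flavonoid and phenylpropanoid genes and 16 carboxypeptidase-like genes. JAL34, AT5MAT and scpl35, the square points, lie between -1.56 and -1.80. JAL22, the second lowest of its list, and UGT84A1, the highest of the flavonoid list, have an array at or below the floor, so their points mark lower bounds of the change. AT5MAT is the lowest of its list, and the other lists have genes below and above their member.

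Chloroplast and clock related genes were represented by PIFI and CCL. PIFI encodes a chloroplast protein named for its part in the rise of chlorophyll fluorescence after illumination, a sign of electron flow through the NDH complex. It had 659.8 and 557 in short days, against 161 and 128 after the shift, which left 23.8 percent of its short day mean. No named member was left with less, but MT1C had the larger log2 difference with quantile normalization (-2.06 against -2.02), with a pseudocount, and without SD30 replicate 1 or SD30_LD7 replicate 2. CCL, a gene with a circadian rhythm whose transcript is known for controlled decay, had 2406 and 2327 in short days, against 986 and 1011 after the shift, 2.37-fold lower. Replicates of CCL differed by 3.4 and 2.5 percent, among the smallest gaps in the set. The hour of harvest is not stated in the labels.

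Enzymes outside these groups made up the next block. AT5G44400, of the family of berberine bridge enzyme-like oxidases, had 1079.5 and 1055 in short days, against 469 and 391 after the shift, 2.48-fold lower. It sits among relatives on chromosome 5 that were much dimmer. AT5G44380 had 55.6 and 101.3 against 13.8 and 10.2, at least 3.34-fold lower against the floor (limma adjusted p = 0.014). Both its shifted values were raised to the floor, so the fit saw no spread between them. The call was lost without either shifted array or SD30 replicate 2. AT5G44410 had 48.2 and 37.8 against 59.7 and 72.5 and was not called (limma adjusted p = 0.27). AT1G04040, of the acid phosphatase family that includes vegetative storage proteins, had 1989.9 and 1737 against 775 and 662, 2.59-fold lower. AT1G28710, a gene of the nucleotide-sugar transferase family, had 2641 and 2829.9 against 946 and 982, 2.84-fold lower, with a gap of 3.8 percent between the shifted arrays. AT2G25530, of the AFG1-like ATPase family, had 725 and 783 against 319 and 296, 2.45-fold lower.

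Members of unknown or loosely described function covered a wide range of levels. AT3G56360 had 1836 and 1484 in short days, against 583 and 641 after the shift, and AT1G19960 had 1209 and 1366 against 362 and 345. The first was 2.71-fold and the second 3.64-fold lower, with no overlap of the groups for either, as the rule demands. AT2G46150, of a family of hydroxyproline-rich and late embryogenesis abundant-like proteins, had 700.1 and 854 against 221 and 223, 3.50-fold lower, and its shifted arrays differed by 0.6 percent. AT5G43150 had 596 and 574 against 266 and 247, 2.28-fold lower.

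**Figure D4:**
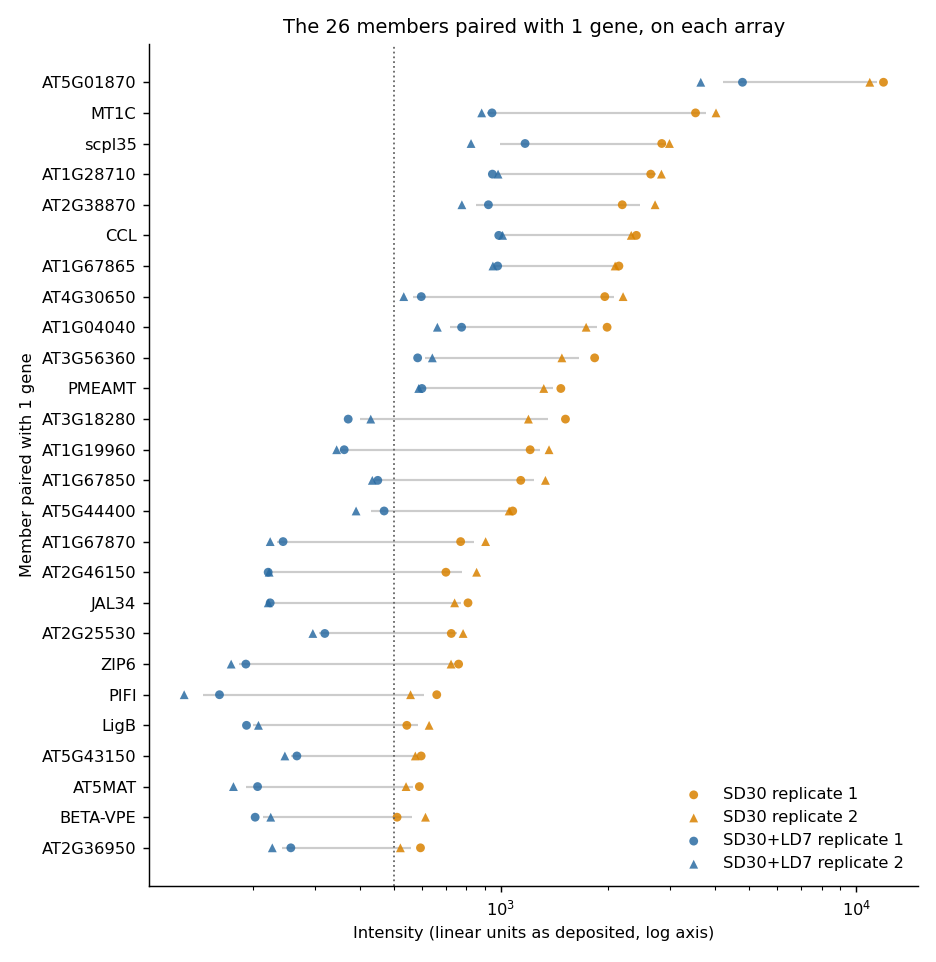
Intensity (log axis) of the 26 members paired with 1 gene on each array, ordered by mean short day level, with grey lines between the group means and the brightness minimum of 500 dotted. AT5G01870 stands apart at the top with 3652 or more on every array, and the widest gaps between arrays of a group are those of scpl35 and AT5G01870 after the shift.

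Position on the chromosomes was not part of the rule. Of the 26 named members 9 lie on chromosome 1, 5 on chromosome 2, 6 on chromosome 3, 2 on chromosome 4 and 4 on chromosome 5. These are 34.6, 19.2, 23.1, 7.69 and 15.4 percent of them, beside 25.5, 14.8, 20.9, 14.8 and 23.95 percent of all bright named genes, a comparison that was not tested. AT1G67850, AT1G67865 and AT1G67870 lie close together on chromosome 1. AT1G67850, which encodes a protein of unknown function, had 1137 and 1334 in short days, against 450.3 and 435 after the shift, 2.79-fold lower. AT1G67865 had 2148 and 2096 against 979 and 949.5, or 45.4 percent of its short day mean, with gaps between replicates of 2.5 and 3.1 percent. Its next gene AT1G67870, a glycine-rich protein gene, had 770.3 and 906 against 244 and 224, 3.58-fold lower.

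The genes between and beside these 3 behaved unevenly. AT1G67860, next to AT1G67865, had 744 and 1046 against 657 and 493, so its groups did not overlap but came near (limma log2 difference -0.63 ± 0.17, adjusted p = 0.027). That call was lost without SD30 replicate 2 (0.32) or SD30_LD7 replicate 2. AT1G67855 lay below the floor of 23.5 on every array. AT1G67880, on the far side of AT1G67870, had 437 and 448 against 471 and 490.1 and was not called (0.12 ± 0.13, adjusted p = 0.62).

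The nearest 2 protein-coding genes on each side of every named member were examined in the same way, a comparison chosen after seeing the data. Of 35 such neighbours that were tested and not members themselves, limma called 7 lower and 0 higher (20 percent lower, beside 8.2 percent over all tested probe sets), and their median log2 difference was 0.00. The 7 were AT1G67860, AT4G30660, AT5G44380 and JAL33, given above, with AT2G46140 and AT2G46170 beside AT2G46150 and YLS5 beside AT2G38870. Their log2 differences were -0.83 ± 0.17 for AT2G46140, -0.41 ± 0.10 for AT2G46170 and -0.54 ± 0.12 for YLS5. The call of AT2G46170 was lost without any 1 array. That of AT2G46140 was lost without SD30 replicate 2 or SD30_LD7 replicate 2, and that of YLS5 without SD30 replicate 1 or SD30_LD7 replicate 2. At least AT4G30660, AT5G44380 and JAL33 belong to the same families as the member near them, and neighbours of that kind are not independent of it. Whether the others of the 7 share a family with their member was not examined. Without SD30 replicate 2 or SD30_LD7 replicate 2 the count dropped to 2 of 35 (5.71 percent), beside 3.66 and 4.91 percent over all tested probe sets, so the count depended on those arrays.

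The 50 members with no gene named here spanned the same levels. Their mean short day intensity was 541.5 to 15301 with a median of 1039, against a median of 1262 for the 26 named ones, and their fold had a median of 3.03 against 2.86. Probe set 261438_at was the brightest member of all, with 15763 and 14840 in short days, against 7228 and 6259.9 after the shift, 2.27-fold lower. Probe set 249101_at had the largest fold, 5.69, with 604.5 and 635 against 173.5 and 44.3, and the higher of its shifted values exceeded the lower by 292 percent, the widest gap of all members. Probe sets without a named gene made up 64.9 percent of the members, 62.5 percent of the 56 bright probe sets with a ratio of 0.25 or less, and 47.9 percent of the 6819 with a ratio above 0.5.

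Replicates of the members lay somewhat farther apart than those of other bright probe sets, a difference that was not tested. The higher short day value exceeded the lower by a median of 10.7 percent in the members and 7.8 percent in the bright probe sets with a ratio above 0.5. After the shift the medians were 12.5 and 8.3 percent, and 19.0 percent for the probe sets with a ratio of 0.25 or less, which are dimmer there. The members were also dimmer after the shift, with a median level of 354 against 1094 for a ratio above 0.5, so those gaps were measured at unlike intensities. SD30_LD7 replicate 1 was the higher of the shifted arrays for 53 of the 77 members (68.8 percent), for 50.7 percent of the bright probe sets with a ratio above 0.5 and for 39.3 percent of those at 0.25 or less. That array also had the highest 3' to 5' ratios of the actin and GAPDH controls, 8.27 and 2.65, but not of ubiquitin, at 3.27 beside 3.44 on SD30 replicate 2. The part of RNA quality in this was not tested.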

How the data were processed

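Each of 4 samples was measured on 1 oligonucleotide array, and the labels' growth conditions gave the groups. The authors' deposited table gives a linear intensity for every probe set on each array, already scaled to a common level, and no source used here names the software. Gene names came from a table of the array's probe sets, brought up to date by matching identifiers in TAIR10.1: 13513 probe sets had 1 gene, of which 13436 matched by identifier, 503 had several and 8730 are unnamed here. Gene order came from TAIR10.1. No sequences were used.

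Members were chosen on the deposited values. For the whole table, intensities were floored at 23.5 (the 20th percentile), log2 values taken, the dimmest 30 percent of probe sets dropped, and 15922 tested with limma 3.58.1 in R 4.3.3 (intensity trend, two-sided, Benjamini-Hochberg adjustment over all tested, threshold 0.05). The 64 control probe sets were left out. Raising values to the floor narrows the spread between replicates that the fit sees, as for AT5G44380, JAL22 and UGT84A1. The fit was tested on simulated data. Folds of members are ratios of group means of unfloored intensities. A gene with several probe sets was represented by the one brightest in short days. With 2 arrays per group, precision is limited throughout.

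The members and gene lists were chosen with earlier results of these data known. The naming rule took the 12 brightest and the 12 most reduced members with 1 gene, members in a list and the probe sets nearest the limits. The other named members, and the related and neighbouring genes, were chosen after their values were seen. Lists of indole glucosinolate, nitrogen and dark response genes had no gene named by the annotation, and those of aliphatic glucosinolate, sulfate, cold, photosynthesis and clock genes held no member, with 6 of 7, 2 of 2, 3 of 3, 1 of 5 and 1 of 1 tested genes lower and 1 photosynthesis gene higher, beside 8.2 percent lower and 6.8 percent higher over all tested probe sets. Of these, AT2G31790 in the aliphatic list met the rule and was left out by name. The sulfate gene SIR was not called without 3 of the arrays in turn (adjusted p up to 0.12), nor UGT74B1 of the aliphatic list without 2 (up to 0.10). Alternatives covered the rule, scaling, floor, filter, trend, threshold, single arrays and the replicate block. Plots used matplotlib 3.10.9 (Python 3.11.15).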

Additional observations from a re-analysis of the deposited data

Results flagged for a closer look

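One control probe set that entered no comparison, AFFX-r2-At-U12639_at, read 230.4 and 307 after the shift (mean 269) but 25.2 and 10.7 in short days (mean 17.95), so signal appeared there beyond the measurements described above.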

How the results depend on the processing

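The rule gave 126 members with a brightness minimum of 250 and 41 with 1000, against 77, then 98 (63 of the 77 shared) with the ratio of the group means, and 90 to 98 when 1 array was left out, an alternative chosen after seeing the data, with 67 to 75 of the 77 shared. Their median log2 difference of -1.55 was -1.49 with median centring, -1.48 with a pseudocount and -1.62 to -1.51 without 1 array. All 338 values of the 26 named members under 13 alternatives stayed negative (-2.24 to -1.08). The rule puts both shifted arrays below both short day arrays, so the sign was largely fixed in advance and nothing is read from it. Over all tested probe sets 2388 calls (1083 higher, 1305 lower) became 1058 to 1494 without 1 array, 152 with no filter on dim probe sets, 1532 with no intensity trend, 1297 at an adjusted p below 0.01, and 1329 higher against 1066 lower with median centring. Without the filter 13 of the 77 members were called, and of the calls named for other genes only those of PYK10 and JAL22 stayed. The labels state no pairing of samples with the same replicate number. The differences between replicates 1 and 2 correlated at 0.047 between the groups, which cannot exclude a pairing. The fit with the replicate block made 2741 calls. Lower neighbours numbered 2 to 5 without 1 array, 4 with no intensity trend and 0 of 51 with no filter.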
